A study of Homo sapiens with 8 samples.

Results

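The transcription factors that set up and hold the germinal centre B cell state were examined as a group of 7 genes, namely BCL6, PAX5, BACH2, IRF8, EBF1, SPIB and POU2AF1. They were chosen by name, with earlier results of these data known. Every island of enrichment within 5 kb of 1 of these genes on hg19 was taken. This gave 41 of the 58757 islands in 6 lists. The lists came from ChIP-seq of trimethylated lysine 4 of histone H3 (H3K4me3), trimethylated lysine 27 of histone H3 (H3K27me3) and the methyltransferase EZH2 in SUDHL6 and HT, established diffuse large B cell lymphoma lines grown without treatment. The labels give no genotype for either line. From general knowledge SUDHL6 carries a gain-of-function mutation of EZH2. Each line and antibody had 1 library and 1 list of islands. No difference between the lines could therefore be tested, and whether it reflects the line or the library cannot be told apart. The lists hold no expression values, so the cell type could not be checked beyond the chromatin of these B cell genes.

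EBF1 and PAX5 commit lymphoid progenitors to the B lineage and keep that identity in mature B cells. BCL6 is the repressor that germinal centre B cells cannot form without. BACH2 represses the plasma cell programme. IRF8, SPIB and the octamer coactivator POU2AF1 act with these factors in germinal centre B cells. H3K4me3 marks promoters that are active or ready for activity, and broad H3K4me3 is often found at genes of cell identity. EZH2 is the enzyme of Polycomb repressive complex 2 and places H3K27me3 over silenced genes.

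At 4 of the 7 genes the RefSeq table of promoters on GRCh38.p14 had a window at the gene's outermost start, from 250 bases before it to 50 bases after it. These 4 are shown because they lie at that start, and IRF8, EBF1 and POU2AF1 had no window there. Among the 4 are the gene whose marks differed most between the lines (BACH2) and the gene with the widest EZH2 island (PAX5). The others are the genes with the highest-scoring (BCL6) and the narrowest (SPIB) H3K4me3 in SUDHL6. Capitals mark CpG dinucleotides. All 4 are written 5′ to 3′ along the gene. They lie at chr6:90296794-90297093 on the minus strand (BACH2), chr9:37034219-37034518 on the minus strand (PAX5), chr3:187745419-187745718 on the minus strand (BCL6) and chr19:50418688-50418987 on the plus strand (SPIB). They are on another build than the islands and were not projected onto hg19.
BACH2: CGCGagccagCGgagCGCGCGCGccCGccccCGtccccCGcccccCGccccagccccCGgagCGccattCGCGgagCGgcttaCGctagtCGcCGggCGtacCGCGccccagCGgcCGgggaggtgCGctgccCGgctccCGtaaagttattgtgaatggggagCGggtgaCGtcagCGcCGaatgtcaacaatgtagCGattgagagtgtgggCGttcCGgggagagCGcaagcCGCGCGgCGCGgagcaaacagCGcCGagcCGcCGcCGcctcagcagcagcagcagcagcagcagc
PAX5: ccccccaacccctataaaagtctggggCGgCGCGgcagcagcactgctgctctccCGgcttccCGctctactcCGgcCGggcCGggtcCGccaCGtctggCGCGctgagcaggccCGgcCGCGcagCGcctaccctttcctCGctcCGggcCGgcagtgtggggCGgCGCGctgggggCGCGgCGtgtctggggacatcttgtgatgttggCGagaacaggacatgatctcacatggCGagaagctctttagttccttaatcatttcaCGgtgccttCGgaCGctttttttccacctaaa
BCL6: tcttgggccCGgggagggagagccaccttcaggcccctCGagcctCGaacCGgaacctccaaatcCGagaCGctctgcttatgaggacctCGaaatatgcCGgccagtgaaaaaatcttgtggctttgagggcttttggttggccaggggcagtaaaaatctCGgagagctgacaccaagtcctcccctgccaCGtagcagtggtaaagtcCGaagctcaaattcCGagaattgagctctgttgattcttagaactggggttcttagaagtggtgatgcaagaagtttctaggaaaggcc
SPIB: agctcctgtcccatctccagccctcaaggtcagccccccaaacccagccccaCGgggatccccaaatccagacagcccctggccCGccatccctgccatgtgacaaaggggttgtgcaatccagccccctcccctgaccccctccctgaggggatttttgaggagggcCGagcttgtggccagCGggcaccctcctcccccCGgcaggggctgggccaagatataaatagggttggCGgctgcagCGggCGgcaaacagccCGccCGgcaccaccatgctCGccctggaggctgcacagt

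The BACH2 window held 45 CpGs, with 73.3% G and C and a ratio of observed to expected CpG of 1.12. PAX5 held 30 CpGs (ratio 0.95), BCL6 12 (0.57) and SPIB 11 (0.34), against a median of 14 over the 35116 windows of the table. The count for BACH2 was higher than in 96.5% of those windows. Letters of 3 motifs were searched on both strands. TATAAA was found in PAX5 and SPIB and in 11.5% of all windows. CCAAT was in none of the 4 and in 34.6% of all windows, and TGCAAAT, the core of the octamer motif, was in none of the 4 and in 4.2% of all windows.

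H3K4me3 lay over the 5′ end of all 7 genes in SUDHL6 and of 6 of the 7 in HT, the exception being BACH2. Among fixed 10 kb tiles of chromosomes 1 to 22, 5.37% held H3K4me3 in SUDHL6, 4.28% in HT and 3.17% in both lines. Exons and introns were not annotated here. Tiles are mostly not promoters, and other promoters were not located on hg19, so these shares do not say how the genes compare with other active genes. At the other 6 genes the islands of both lines lay over the same 5′ end, so their overlap was certain and nothing is read from it. Of all SUDHL6 H3K4me3 islands, 59.0% (95% exact interval 58.1 to 59.8%) overlapped one of HT. Counted from HT, 74.4% (73.6 to 75.2%) of islands overlapped one of SUDHL6. Such intervals cover counting error only.

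**Figure D1:**
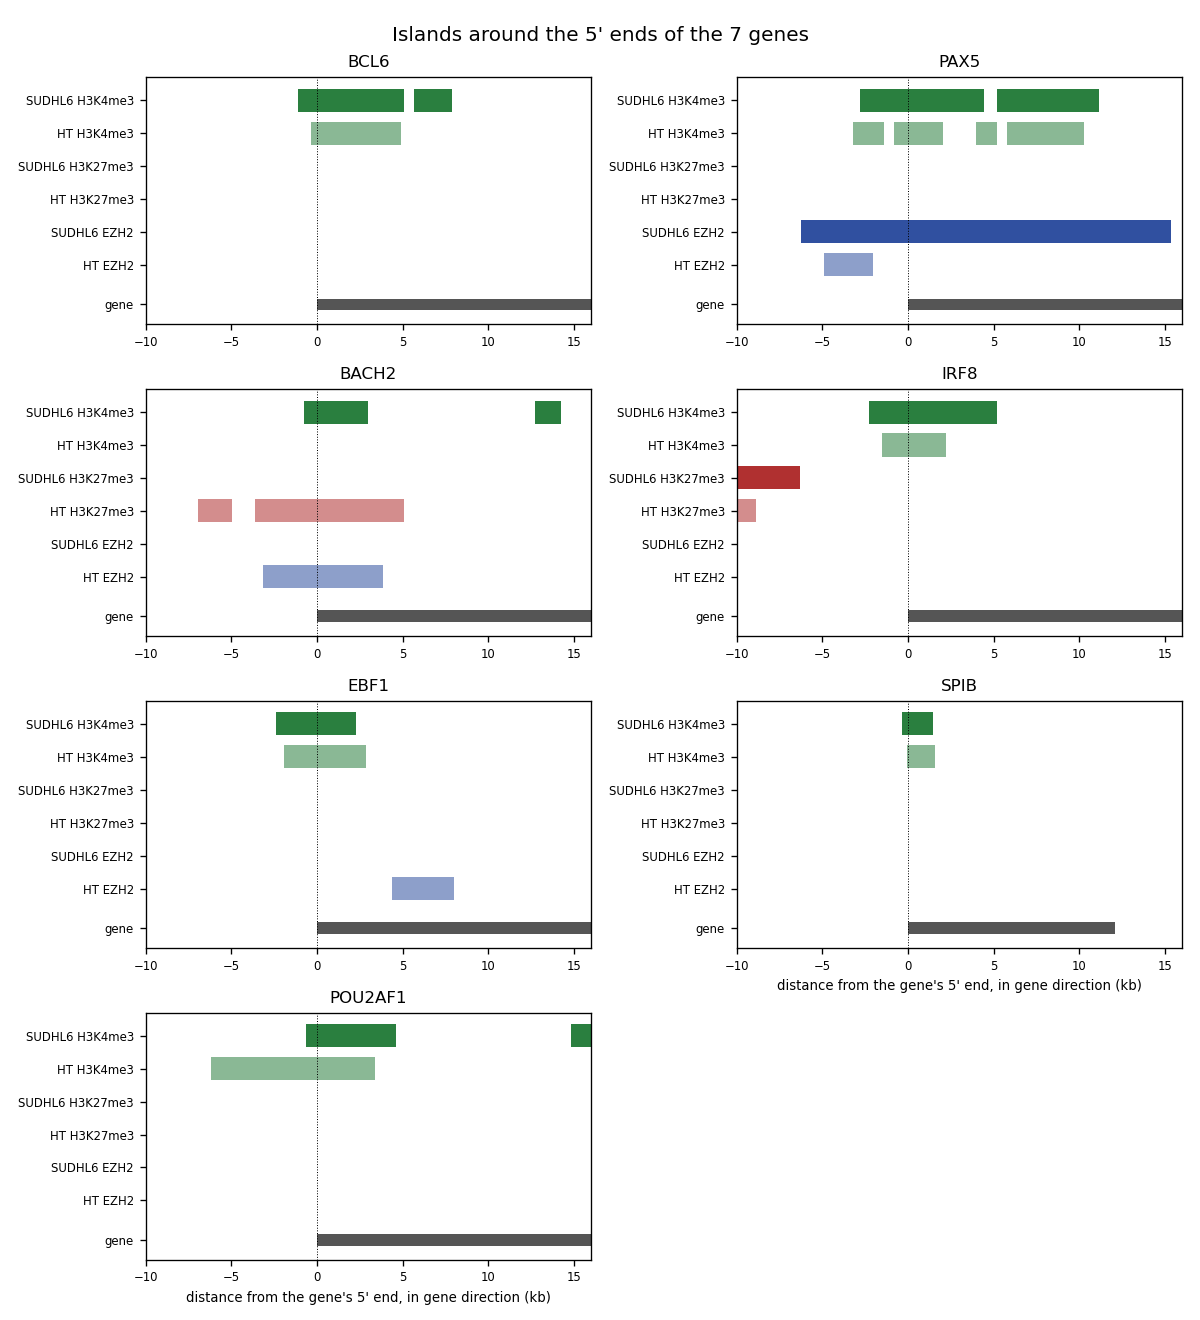
Islands around the 5′ end of each gene. The x axis is the distance from the 5′ end in the direction of the gene (kb), rows are the 6 libraries with SUDHL6 in full and HT in pale colour, and the grey bar is the gene, cut at the frame. BACH2 has H3K4me3 in SUDHL6 and H3K27me3 with EZH2 in HT, and PAX5 has a 21.6 kb EZH2 island in SUDHL6.

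Most of these H3K4me3 islands were wider than the median of their list, which mixes islands at promoters with others. Promoters of other genes were not located on hg19. Whether these widths and ranks exceed those at other promoters was therefore not tested. The widest island within 5 kb of the 5′ end had a median width of 5.25 kb over 7 genes in SUDHL6 and 4.28 kb over 6 genes in HT, against list medians of 1.95 kb and 2.10 kb. It exceeded the list median at 6 of 7 genes in SUDHL6 and at 5 of 6 in HT, with SPIB below it in both lines. The score that the authors give each island ranked in the top 10% of the list at 6 of 7 genes in SUDHL6 and at 3 of 6 in HT. This score was used only within its list, since no source used here says what it counts. It grows with width: per kb, the median percentile of these islands was 69.2 in SUDHL6 and 60.3 in HT, against 93.6 and 91.6 by total score.

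BCL6, on the minus strand of chromosome 3 from 187439165 to 187463513, had the highest-ranking H3K4me3 of the group in SUDHL6. Its island ran from 187458451 to 187464600 in SUDHL6, 6.15 kb wide, with a score of 436 (rank 52 of 13736). In HT it ran from 187458601 to 187463850, 5.25 kb wide, with a score of 236 (rank 141 of 10914), and lay wholly inside the SUDHL6 island. Both of these islands reached about as far into the gene, 5062 bp past the 5′ end in SUDHL6 and 4912 bp in HT. A further SUDHL6 island of 2.25 kb lay 5.66 to 7.91 kb inside the gene, so the mark as a whole reached further in SUDHL6. Once islands within 5 kb of each other were joined, the widths were 9.0 kb in SUDHL6 and 5.25 kb in HT. Per kb, BCL6 had the highest percentile of the group in SUDHL6, 96.9, and stood at percentile 76.8 in HT.

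IRF8, an interferon regulatory factor on the plus strand of chromosome 16 from 85932774 to 85956211, had H3K4me3 that was 2.0 times as wide in SUDHL6 as in HT. The island spanned 85930501 to 85938000 in SUDHL6 (7.50 kb, score 311, rank 190) and 85931251 to 85935000 in HT (3.75 kb, score 129, rank 1497). The HT island covered 50% of the SUDHL6 island and nothing outside it. Downstream of the 5′ end the mark reached 5226 bp in SUDHL6 and 2226 bp in HT.

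POU2AF1, on the minus strand of chromosome 11 from 111222977 to 111250157, went the other way. Its H3K4me3 was 5.25 kb wide in SUDHL6 (111245551 to 111250800, score 165, rank 1239) and 9.60 kb in HT (111246751 to 111256350, score 302, rank 59). The HT island was the widest of the group in either line and ranked 55 by width among all HT islands. The extra length lay upstream, 643 bp beyond the 5′ end in SUDHL6 and 6193 bp in HT. Per kb the scores were 31.4 in SUDHL6 and 31.5 in HT, near the list medians of 31.7 and 34.0.

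EBF1 and SPIB differed little in width between the lines. EBF1, on the minus strand of chromosome 5 from 158122923 to 158526788, had islands of 4.65 kb in SUDHL6 (158524501 to 158529150, score 188, rank 865) and 4.80 kb in HT (158523901 to 158528700, score 199, rank 293). The shared 4.2 kb made up 90.3% of the SUDHL6 island and 87.5% of the HT island. SPIB, an ETS family factor on the plus strand of chromosome 19 from 50922195 to 50934309, had the narrowest islands, 1.80 kb in SUDHL6 (50921851 to 50923650, score 109, rank 3151) and 1.65 kb in HT (50922151 to 50923800, score 79, rank 4678). Each pair differed in width by 150 bp, a single window of the caller. Per kb SPIB stood at percentile 92.1 in SUDHL6 and 82.3 in HT.

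**Figure D2:**
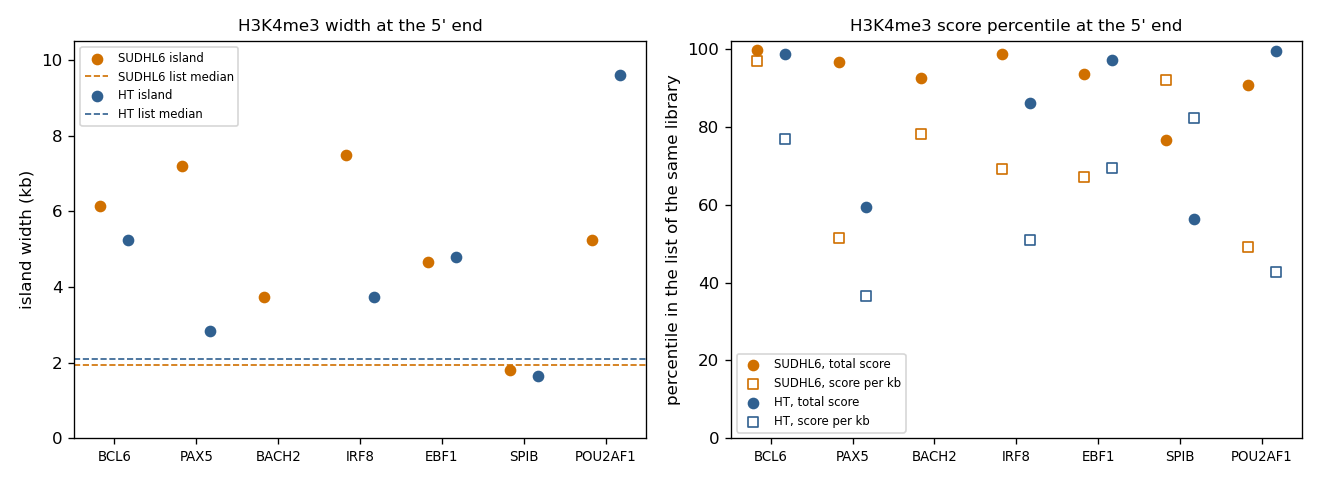
Left, width (kb) of the widest H3K4me3 island within 5 kb of each 5′ end, with SUDHL6 left of HT and dashed lines at the median width of each list. Right, the percentile of the same islands within their own list by total score (filled circles) and by score per kb (open squares). BACH2 has no HT point, and POU2AF1 is the gene with the clearly wider island in HT.

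BACH2, on the minus strand of chromosome 6 from 90636247 to 91006627, carried opposite marks in the lines. In SUDHL6 an H3K4me3 island of 3.75 kb lay over the 5′ end from 91003651 to 91007400, with a score of 177 (rank 1019 of 13736), and another of 1.5 kb lay 12.7 to 14.2 kb inside the gene. No SUDHL6 island of H3K27me3 or EZH2 lay within 5 kb of the gene. In HT the same 5′ end was under an H3K27me3 island of 8.70 kb from 91001551 to 91010250, with a score of 268 (rank 305 of 16919). An HT EZH2 island of 7.05 kb from 91002751 to 91009800, with a score of 178 (rank 80 of 2523), lay wholly inside it and covered 81.0% of it. The nearest HT H3K4me3 was 95.2 kb past the 3′ end. Both HT islands contained the whole SUDHL6 H3K4me3 island, which made up 43.1% of the H3K27me3 and 53.2% of the EZH2 island.

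This arrangement was uncommon. Of all SUDHL6 H3K4me3 islands, 1.48% (1.28 to 1.69%, 203 islands) overlapped both H3K27me3 and EZH2 of HT and no H3K4me3 of HT. The reverse, HT H3K4me3 over H3K27me3 and EZH2 of SUDHL6 without SUDHL6 H3K4me3, was found at 0.284% (0.193 to 0.403%, 31 islands). The SUDHL6 EZH2 list holds 1506 islands and the HT list 2523. Among the 203 SUDHL6 H3K4me3 islands, the BACH2 island ranked 28 by score and 36 by width. Of all HT EZH2 islands, 41.8% (39.8 to 43.7%) had HT H3K27me3 without HT H3K4me3, as at BACH2.

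H3K27me3 in HT also dotted the body of BACH2. Beside the island over the 5′ end, an island of 1.95 kb lay just upstream of it and 5 islands of 1.5 to 3.75 kb lay from 119 to 312 kb inside the gene. The scores of those 5 ran from 31 to 65, around the list median of 49, and no EZH2 island met them. Of the 380 kb made up by BACH2 and 5 kb on each side, 0 kb was under H3K27me3 in SUDHL6 and 21.5 kb in HT. Of tiles of that length, 10.1% had as much H3K27me3 in HT and 33.2% held any in SUDHL6.

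**Figure D3:**
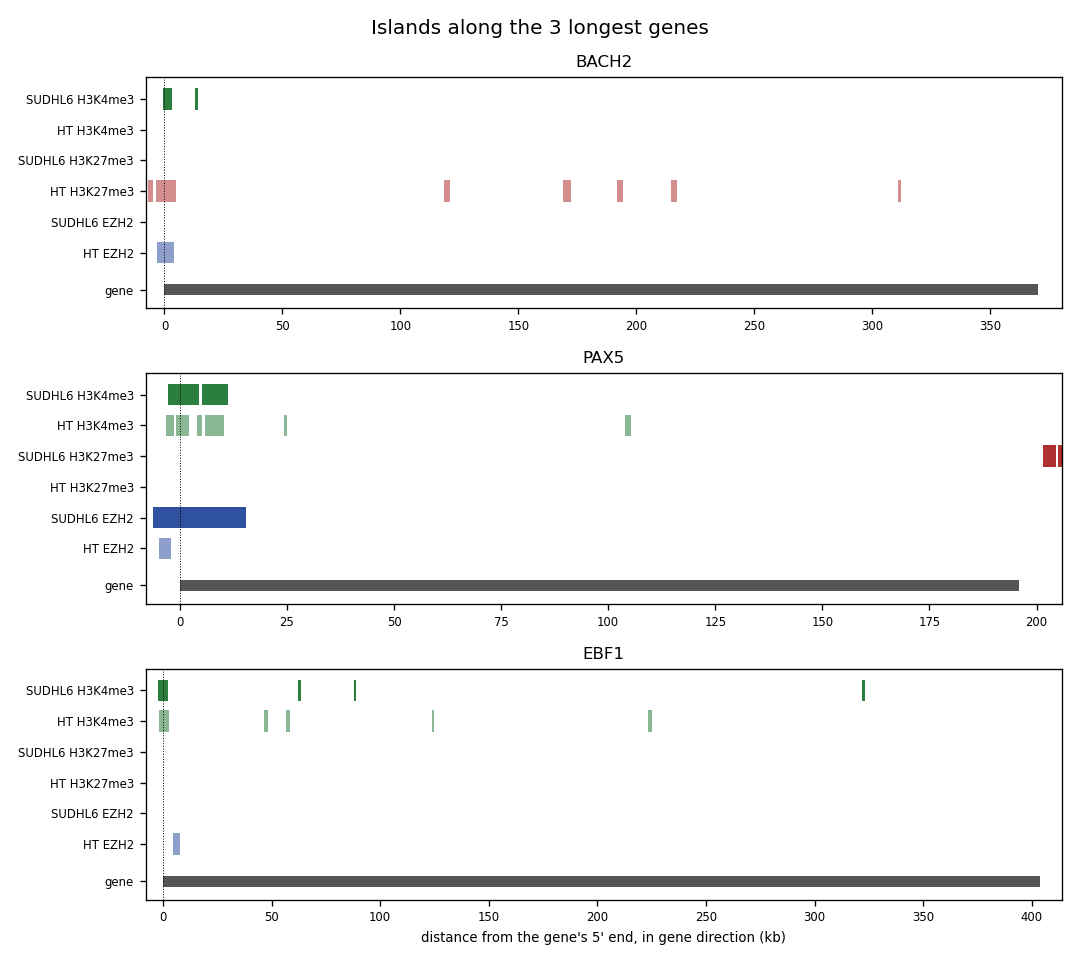
Islands along BACH2, PAX5 and EBF1, the longest of the genes. The x axis is the distance from the 5′ end in the direction of the gene (kb), rows are the 6 libraries, and the grey bar is the gene. HT H3K27me3 recurs along BACH2, and at PAX5 all marks lie near the 5′ end except for small HT H3K4me3 islands and SUDHL6 H3K27me3 that begins 5.58 kb past the 3′ end.

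The SUDHL6 list had no H3K27me3 in the wider region of BACH2 either. Within 5 Mb on each side of its 5′ end there were 0 H3K27me3 islands in SUDHL6 and 22 in HT, with 1 EZH2 island in SUDHL6 and 8 in HT. H3K4me3 there was present in both lines, with 35 islands in SUDHL6 and 27 in HT (log2 ratio of covered length, SUDHL6 over HT, 0.33, against 0.37 over the whole lists). These counts include the islands of BACH2 itself, 7 of H3K27me3 and 1 of EZH2 in HT and 2 of H3K4me3 in SUDHL6. The SUDHL6 H3K27me3 island nearest to the gene lay 8276 kb away. How much of the difference at BACH2 goes with its region was not tested.

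PAX5, on the minus strand of chromosome 9 from 36838531 to 37034476, combined broad H3K4me3 with EZH2. PAX5 is known to use alternative first exons. In SUDHL6 an island of 7.20 kb lay over the 5′ end (37030051 to 37037250, score 234, rank 470) and another of 6.0 kb lay just inside the gene (37023301 to 37029300, score 276, rank 298). In HT the same stretch held 4 islands, of 1.80, 2.85, 1.20 and 4.50 kb along the gene. The 2.85 kb island lay over the 5′ end (37032451 to 37035300, score 83, rank 4324) and the 4.50 kb island inside the gene had the highest score, 205 (rank 255). By the island at the 5′ end alone the width was 2.53 times as large in SUDHL6 as in HT. Once islands within 5 kb of each other were joined, the widths were 13.95 kb in SUDHL6 and 13.5 kb in HT, so the reach of the mark differed little once its gaps were closed.

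Inside the genes, beyond 5 kb from the 5′ end, there were 7 H3K4me3 islands in SUDHL6 and 7 in HT. In each line 1 of the 7 overlapped an island of the other line, the PAX5 islands of 6.0 kb and 4.5 kb just described, against 59.0% of all SUDHL6 and 74.4% of all HT islands. The other 6 in each line were at most 2.25 kb wide with scores of at most 61. Of all islands within those bounds, set after the data were seen, 1940 of 5768 in SUDHL6 (33.6%) and 2032 of 4068 in HT (50%) overlapped the other line. The bounds come from islands without overlap, so nothing is read from that difference. EBF1 held 3 such islands of 1.2 to 1.5 kb in SUDHL6 and 4 of 1.05 to 2.25 kb in HT, at scores of 22 to 26 in SUDHL6 and 21 to 41 in HT, far below the list medians of 61 and 70. PAX5 held further HT islands of 0.90 kb and 1.2 kb, 24.2 kb and 104 kb inside the gene.

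EZH2 at PAX5 was far wider in SUDHL6. A single SUDHL6 EZH2 island ran from 37019101 to 37040700, 21.6 kb, with a score of 319 (rank 29 of 1506 by score and 16 by width). It contained both SUDHL6 H3K4me3 islands, which covered 61.1% of it, and no H3K27me3 island of either line met it. The HT EZH2 island was 2.85 kb wide (37036501 to 37039350, score 42, rank 1725 of 2523). It lay 2.03 to 4.87 kb upstream of the 5′ end, wholly inside the SUDHL6 island, and HT H3K4me3 covered 42.1% of it. Per kb the EZH2 scores were 14.8 in SUDHL6 and 14.7 in HT, close to the list medians of 13.9 and 14.9, so the SUDHL6 island stood out by width.

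EZH2 with H3K4me3 and without H3K27me3, as at PAX5, was seen at 10.8% (9.30 to 12.5%, 163 islands) of EZH2 islands in SUDHL6 and 26.6% (24.9 to 28.4%) in HT. The PAX5 island ranked 1 of these 163 in SUDHL6 by both score and width, against a class median width of 3.45 kb. Among the 178 SUDHL6 EZH2 islands of 10 kb or wider, 4.49% (1.96 to 8.66%, 8 islands) were of this kind. The labels name input samples, but these were not used here, so EZH2 enrichment at this promoter was not set against input.

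Polycomb islands were otherwise few. Beside BACH2 and PAX5, the 7 genes had an HT EZH2 island of 3.60 kb at EBF1 (158518801 to 158522400, score 35, rank 2172), which lay 4.39 to 7.99 kb inside the gene and met neither histone mark of HT, and a SUDHL6 H3K27me3 island of 3.15 kb at SPIB (50938351 to 50941500, score 80, rank 4453), which began past the 3′ end. Neither mark of the same line was present at 24.4% (22.7 to 26.1%) of all HT EZH2 islands. Altogether H3K27me3 came within 5 kb of 1 gene in SUDHL6 and 1 in HT, and EZH2 of 1 gene in SUDHL6 and 3 in HT.

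The shares of tiles put these counts in scale. H3K27me3 was held by 5.05% of 10 kb tiles in SUDHL6 and 6.51% in HT, and EZH2 by 0.786% in SUDHL6 and 1.20% in HT. In tiles as long as each gene with its 5 kb flanks the shares were higher, from 7.80 to 34.4% for SUDHL6 H3K27me3 and from 10.7 to 50.1% for HT H3K27me3. Summed over the 7 lengths they came to 1.31 genes in SUDHL6 and 1.90 genes in HT for H3K27me3, so that 1 gene in each line is near this background. For EZH2 they came to 0.397 genes in SUDHL6 and 0.730 genes in HT, beside 1 and 3 genes found. At the limit of 5 kb, the SPIB island lay 4.04 kb from the gene, and the nearest islands left out were the SUDHL6 H3K27me3 islands 5.58 kb from PAX5 and 6.32 kb from IRF8.

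BCL6, IRF8 and POU2AF1 had no H3K27me3 or EZH2 island within 5 kb in either line. The nearest H3K27me3 to BCL6 was 428 kb away in SUDHL6 and 27.1 kb in HT. At IRF8 it lay close by, 6.32 kb upstream in SUDHL6 (4.35 kb wide) and 8.87 kb upstream in HT (3.15 kb wide). At POU2AF1 an HT island of 18.15 kb with a score of 444 (rank 100 of 16919) began 13.4 kb past the 3′ end. A SUDHL6 island of 1.5 kb with a score of 32 began 15.98 kb past it.

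The regions around the genes differed between the lines as well, and each region includes the islands of its own gene. In the 10 Mb around POU2AF1, 68.3 kb was under H3K4me3 in SUDHL6 and 202 kb in HT (log2 ratio of SUDHL6 over HT -1.56). For H3K27me3 it was 87.8 kb in SUDHL6 and 2209 kb in HT (-4.65, against -0.084 over the whole lists). For EZH2 it was 13.35 kb in SUDHL6 and 125 kb in HT (-3.23, against -0.33 over the whole lists). The log2 width ratio of the H3K4me3 island at POU2AF1 was -0.87. Width of 1 island is another measure than covered length, and any link between the 2 was not tested. Around PAX5 the regional H3K4me3 ratio was 0.76 and the EZH2 ratio 0.78, both towards SUDHL6. EZH2 covered 73.2 kb there in SUDHL6, of which the PAX5 island itself made up 21.6 kb. In HT it covered 42.75 kb, of which the PAX5 island made up 2.85 kb. Around IRF8 the H3K4me3 ratio was 0.18, below the 0.37 of the whole lists, and the width ratio at the gene was 1.00 on the log2 scale. The regional ratios of H3K27me3 and EZH2 around IRF8 were 1.20 and 0.86. In the same order they were -1.43 and -1.50 around BCL6, and 0.75 and 0.13 around SPIB. Around EBF1, 14.6 kb was under H3K27me3 in SUDHL6 and 303 kb in HT, and no H3K27me3 lay within 5 kb of the gene in either line. Neither read depth nor copy number is given by the sources used here, and their part in these differences was not tested.

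**Figure D4:**
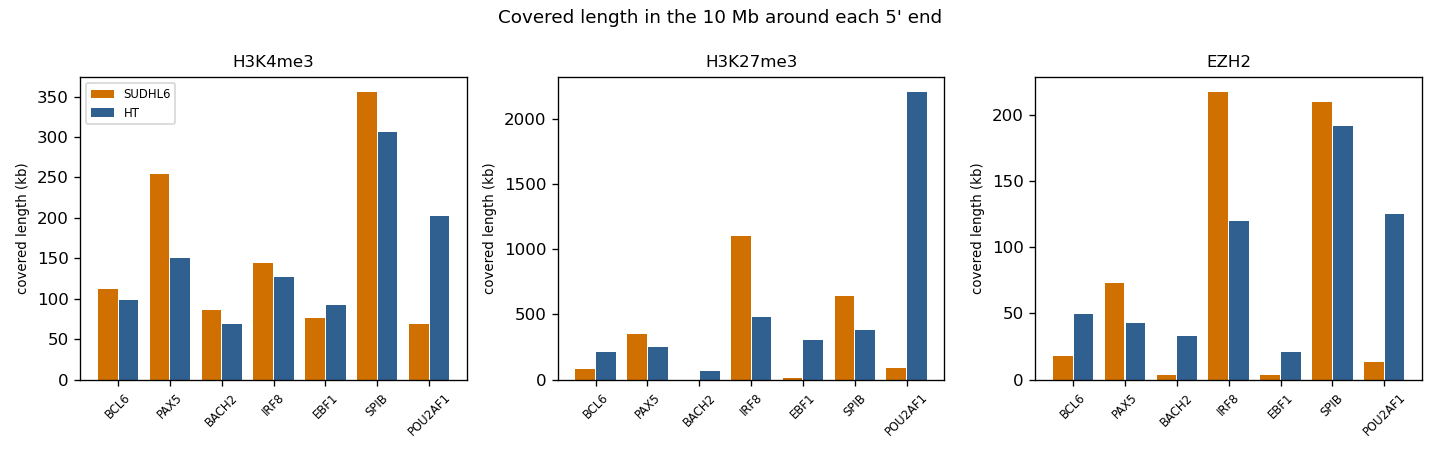
Length covered by islands (kb) in the 10 Mb centred on each 5′ end, with SUDHL6 left of HT, in 1 panel per antibody with its own scale. The islands of the gene itself are included. H3K27me3 is at 0 in SUDHL6 around BACH2 and reaches 2209 kb in HT around POU2AF1.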

How the data were processed

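Islands of H3K4me3, H3K27me3 and EZH2 enrichment in SUDHL6 and HT were deposited by the authors as 1 list per library, with a whole-number score per island that no source used here defines. Per the submitters' processing notes SICER and hg19 were used. By the deposited names, windows of 150 bp, gaps of up to 450 bp and an FDR of 1E-7 were set. The aligner, read filters, control and depth are not given in the sources used here, and no precision could be derived from depth.

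Gene positions on hg19 were fixed beforehand for the 7 genes, and the strand gave the 5′ end. The strands of 6 genes were checked against the RefSeq promoter table. That of POU2AF1, on which its 5′ end and distances rest, is from general knowledge and was not checked. The genes and lists were chosen with earlier results of these data known. All 7 genes are named. Positions are counted from 1. Overlap meant at least 1 bp. Ranks and percentiles were taken within a list, and equal scores shared the better rank. Fixed tiles covered chromosomes 1 to 22 up to the last island, and tiles of gene length were added after the data were seen. Shares have exact (Clopper-Pearson) 95% intervals. Promoter windows came from RefSeq (GRCh38.p14), which held 6 of the 7 genes. No further genes were located on hg19, so planned counts over other genes and a search for genes with a like pattern were not run. Alternatives were distances of 0 and 20 kb, the 50% of islands with the highest scores, islands within 5 kb joined, equal numbers of islands, and ranks by width or score per kb. Python 3.11.15, numpy 2.4.6, pandas 2.3.3, scipy 1.17.1 and matplotlib 3.10.9 were used.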

Additional observations from a re-analysis of the deposited data

How the results depend on the processing

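No paired analysis was possible because each line and antibody had 1 library. With no replicates, any shift of a median or ratio is given. H3K4me3 lay at the 5′ end of 7 genes in SUDHL6 and 6 in HT under every setting run. Its log2 ratio of covered length over the genes (SUDHL6 over HT) was 0.24, below the 0.37 of the whole lists. The ratio over the genes was 0.36 at a distance of 0 kb, 0.20 at 20 kb and 0.44 in the upper 50% by score. With islands joined it was 0.18, and with equal numbers of islands 0.083. The ratio of the whole lists is given for the main setting only. The median width in HT was 4.65 kb at 20 kb and 5.03 kb with islands joined, and that of SUDHL6 stayed at 5.25 kb under each of the 5 settings. The median score percentile in HT was 97.4 at 20 kb, 83.3 in the upper 50%, 97.1 joined, 60.3 per kb and 92.5 by width. In SUDHL6 it was 87.3 in the upper 50%, 92.3 joined, 91.98 with equal numbers, 69.2 per kb and 95.5 by width. The upper 50%, and equal numbers in SUDHL6, drop low-scoring islands and leave the order of the rest. Percentiles fall there by construction, so nothing is read from those shifts. H3K27me3 reached 0 genes at 0 kb and 5 genes at 20 kb in SUDHL6, and 4 genes at 20 kb in HT. Tiles of gene length were made with flanks of 5 kb only. Counts of genes at 0 and 20 kb therefore have no background beside them, and nothing is read from them. EZH2 in HT (3 genes) reached 2 genes at 0 kb, since the PAX5 island lies outside the gene, and 1 gene, BACH2, in the upper 50% and with equal numbers of islands, so the HT islands at PAX5 and EBF1 rest on low scores. Where no island was listed the mark may still be present, and the unknown depth limits how far any of these widths can be compared.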
